A study of Mus musculus with 17 samples.

Results

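The amyloid precursor protein gene App, its relative Aplp1, the proteases Adam10, Bace1, Psen2, Ide and Mme and the tau gene Mapt were followed in the aging mouse hippocampus. These 8 genes were taken by name as genes of APP processing and neurodegeneration and found by Ensembl identifier among the 38355 gene identifiers counted, and all 8 passed the filter on low counts in both comparisons. PolyA RNA was sequenced from hand-dissected hippocampus of untreated wild type C57BL/6J mice in 17 libraries. Single-end libraries came from mice of 3 months (3M, 5 libraries) and 24 months (24M, 6 libraries), and paired-end libraries from mice of 3 months (3 libraries) and 29 months (29M, 3 libraries). No group carried a transgene or deletion, the labels do not give the sex of the mice, and the oldest mice had been bought at 24 months and held until use. The 24M mice were compared with the single-end 3M mice and the 29M mice with the paired-end 3M mice, so that a difference between the 24M and 29M results cannot be told apart from a difference between single-end and paired-end libraries.

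APP is a membrane protein that is cut along alternative routes. An alpha-secretase such as ADAM10 cuts inside the amyloid-beta stretch and so prevents the peptide from forming, whereas BACE1, the beta-secretase, cuts at its start, and the gamma-secretase complex, whose catalytic subunit is a presenilin such as presenilin 2, then cuts within the membrane and releases amyloid-beta. The peptide can be broken down by metallopeptidases such as insulin-degrading enzyme (Ide) and neprilysin (Mme), and tau, a microtubule-binding protein of axons, forms the other hallmark deposit of Alzheimer's disease. These are RNA levels, so they give neither protein, enzyme activity nor peptide.

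Coding stretches that tie these genes together are printed to place the cut and the active sites that the roles above refer to. They were read from the GENCODE transcripts on GRCm38, 5′ to 3′ on the coding strand, with the named feature in capitals. The App stretch encodes amyloid-beta (42 residues, positions 672 to 713 of transcript App-206) and lies on the minus strand in exons 16 and 17 of 18, at chr16:84965670-84965744 and chr16:84962770-84962868. The Bace1 stretch (plus strand, exon 2 of 9, chr9:45852891-45852926) holds the first of the aspartates of its active site. The Psen2 stretch (minus strand, exon 10 of 11, chr1:180228921-180228959) holds the GxGD motif of presenilins at the start of the 5 residues in capitals. The Adam10 stretch (plus strand, exons 9 and 10 of 16, chr9:70754284-70754325 and chr9:70761583-70761597) and the Mme stretch (plus strand, exon 18 of 23, chr3:63362009-63362047) hold the HEXXH motif that binds zinc. In Adam10 the capitals run on past HEXXH to a further histidine, over 11 residues. The coordinates include the flanking bases in lower case. Counts were summed over the whole gene, and no stretch was measured on its own.
App: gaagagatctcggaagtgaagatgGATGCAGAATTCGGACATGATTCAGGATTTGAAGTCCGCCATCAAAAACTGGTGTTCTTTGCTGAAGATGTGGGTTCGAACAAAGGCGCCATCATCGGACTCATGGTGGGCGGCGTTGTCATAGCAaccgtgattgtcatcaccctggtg
Bace1: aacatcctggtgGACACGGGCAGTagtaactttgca
Psen2: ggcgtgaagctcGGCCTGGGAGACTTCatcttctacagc
Adam10: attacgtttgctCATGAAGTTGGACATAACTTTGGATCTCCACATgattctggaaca
Mme: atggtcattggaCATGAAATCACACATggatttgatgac

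Read totals on genes were 19144461 to 28438296 per library at 3M and 9213474 to 19756411 at 24M in the single-end set. In the paired-end set they were 10977976 to 15054972 at 3M and 10991389 to 13563541 at 29M. The 24M libraries of replicates 1 and 4 differed by less than sampling noise and were counted as 1 sample, as their rounded mean, which leaves 5 samples at 24M. All 8 hippocampus markers were detected in every group, with a summed level between 1026 and 1476 counts per 1000000 (CPM). In 3M single-end replicate 4 the summed level of 12 striatum markers was 747 CPM, against 244 to 305 CPM in the other 3M and 24M samples. The summed level of 9 microglia markers was 408 to 474 CPM at 3M and 520 to 561 CPM at 24M, and 395 to 408 CPM against 513 to 539 CPM in the paired-end libraries, with 2 of the 9 called higher at each age. The 10 astrocyte markers summed to 6205 to 6844 CPM at 3M and 6738 to 7206 CPM at 24M, and to 5844 to 5953 CPM against 6368 to 6406 CPM in the paired-end libraries, and 1 of them (Gfap) was called higher at both ages. Of 7 endothelial markers, 1 (Cldn5) was called lower at 24M. Choroid plexus markers spanned 2042 to 8469 CPM within the 3M single-end samples alone. In tissue RNA of this kind, fewer cells of a type and less RNA per cell cannot be told apart. The paper counted stained cells and reports no significant change in the numbers of microglia, astrocytes or neurons. It also reports unaltered marker genes for neurons and microglia and an increase of Gfap, whereas the values here are sums over lists of markers.

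The genes spanned a wide range of abundance. Compared as CPM per kilobase of exon at 3M in the single-end libraries, Aplp1 stood highest (499), followed by App (145), Mapt (78.8), Bace1 (23.3), Adam10 (21.5), Ide (7.60), Psen2 (4.11) and Mme (0.619). The length was the union of all annotated exons, 12996 bases for App, 11542 for Mme and 3017 for Aplp1. Their transcripts with the longest coding sequence have 8167, 3345 and 2343 bases. Levels and ratios per kilobase between genes thus depend on the length taken. In CPM alone, App stood above Aplp1 (1884 against 1506). Among all genes tested, App lay at the 99.9th percentile of mean CPM and Mme at the 27.6th. The precursors and tau were thus abundant transcripts, and Mme was counted by 41 to 192 reads per library. In the single-end libraries these were 110 to 192 reads at 3M and 41 to 107 at 24M, where the read totals were lower too. The neighbours Bace1 and Adam10 changed places between samples, since the ratio of Adam10 to Bace1 per kilobase was 0.742 to 1.08 over the 3M single-end samples and 0.903 to 0.942 over the 3M paired-end samples.

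**Figure D1:**
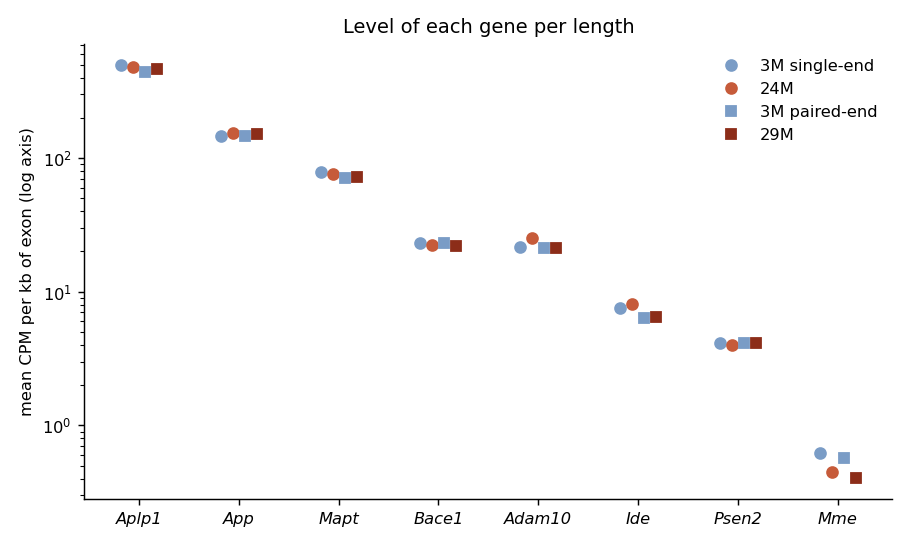
Mean CPM per kilobase of exon of the 8 genes (log axis) in the 4 groups, circles for single-end and squares for paired-end libraries, with 3M in blue and the aged groups in red. Aplp1 lies highest at 499 in the 3M single-end group and Mme lowest at 0.619, and the order from Aplp1 to Mapt is shared by all groups.

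None of the 8 genes passed the test at either age. The test was of whole-gene counts, which cannot show the differential exon usage that the paper reports for App and Bace1. At 24M, 0 of 8 reached an adjusted p of 0.05 with an absolute log2 fold change of 0.5, beside 1.98% of the 15683 genes tested, and 0 of 8 reached that adjusted p at any size, beside 5.58% (edgeR quasi-likelihood test, Benjamini-Hochberg over all genes). At 29M the counts were again 0 of 8, beside 1.45% and 2.99% of 15097 genes. Genes called as lower made up 0.638% of all genes at 24M and 0.113% at 29M, and no gene of the 8 was among them. At an unadjusted p under 0.05 there were 2 of the 8 at 24M (Mme and Adam10), beside 26.1% of all genes, and 1 at 29M (Mme), beside 17.3%. With DESeq2, 1 of the 8 (Mme) passed at 24M at any size, beside 1581 of 15419 genes. At 29M 0 of the 8 passed with DESeq2, beside 305 of 17546. The log2 fold changes ran from -0.45 to 0.24 at 24M and from -0.48 to 0.08 at 29M, with medians of -0.06 and 0.00, where the median of all genes tested was 0.00 at both ages.

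**Figure D2:**
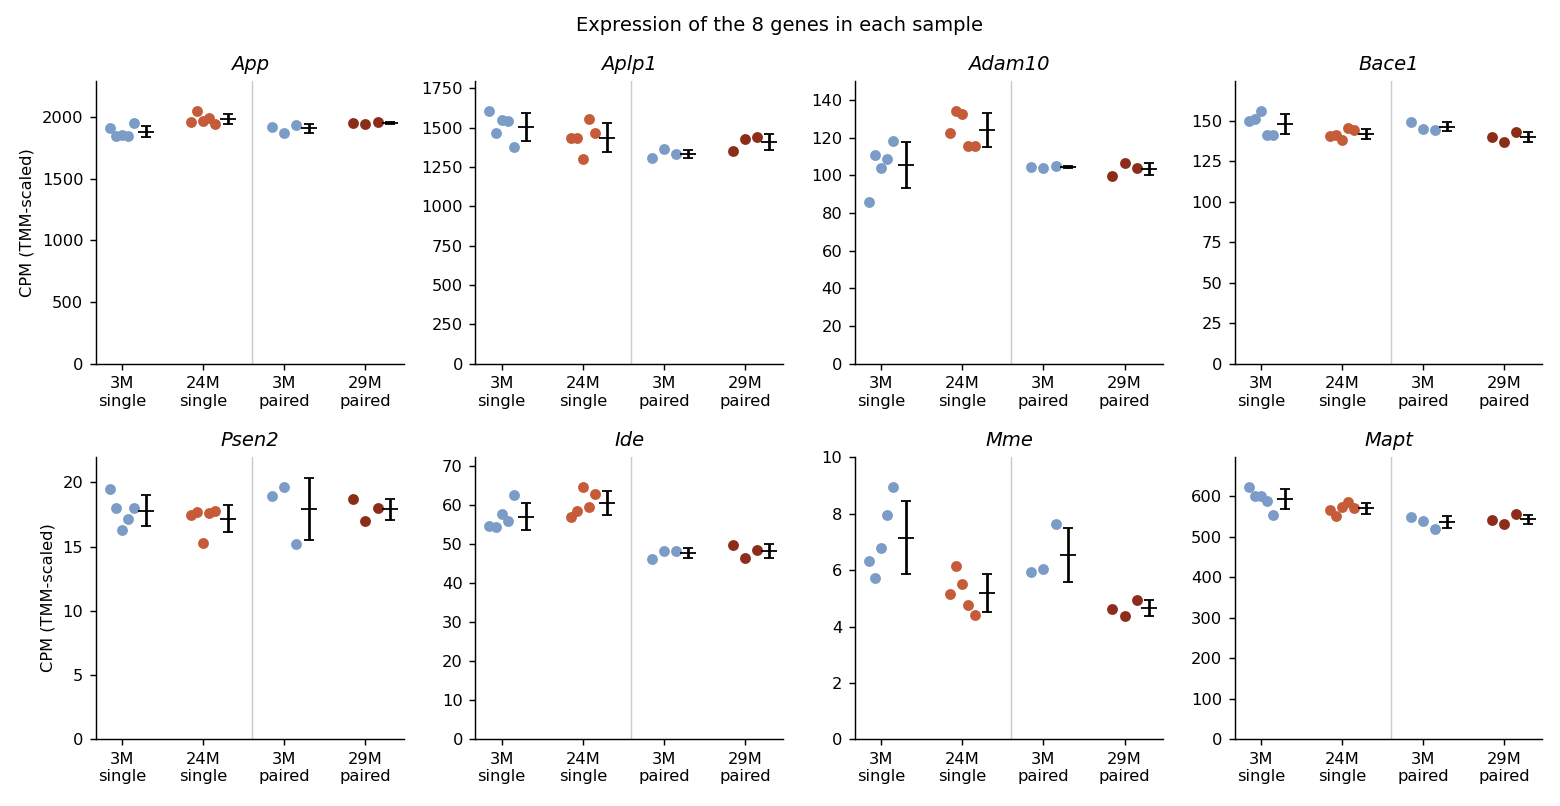
TMM-scaled CPM of each gene in every sample (points), with the group mean and SD as a bar to the right of the points; a grey line parts single-end from paired-end libraries. The levels of Mme are 4.41 to 6.15 CPM at 24M and 4.38 to 4.94 CPM at 29M, against 5.71 to 8.94 and 5.94 to 7.64 CPM at 3M.

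Among the precursors, App was expressed at 1910, 1852, 1856, 1847 and 1954 CPM in the 3M single-end samples and at 1963, 2048, 1973, 1991 and 1944 CPM at 24M. Only the lowest 24M sample fell within the 3M range. The means were 1884 ± 46.8 CPM and 1984 ± 39.9 CPM (SD, n = 5 each), a log2 difference of 0.07 (SE 0.04), which did not pass (adjusted p = 0.227, edgeR). In the paired-end libraries App was at 1924, 1871 and 1939 CPM at 3M and at 1952, 1947 and 1959 CPM at 29M. All 29M samples lay above all 3M samples, yet the log2 difference was 0.03 (SE 0.04, adjusted p = 0.752). The 95% confidence interval of the App change went from -0.4% to 11.4% at 24M and from -3.8% to 8.6% at 29M.

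Aplp1, a paralog of App that lacks the amyloid-beta sequence, had a negative difference at 24M and a positive one at 29M and passed at neither. It was 1506 ± 88.9 CPM at 3M and 1437 ± 92.2 CPM at 24M (n = 5 each), and 1333 ± 27.0 CPM at 3M and 1406 ± 49.5 CPM at 29M (n = 3 each). The log2 differences were -0.07 (adjusted p = 0.458) and 0.08 (adjusted p = 0.388). The ranges overlapped in both comparisons. The ratio of App to Aplp1 per kilobase was 0.277 to 0.330 at 3M and 0.297 to 0.353 at 24M, and 0.319 to 0.342 and 0.315 to 0.336 in the paired-end libraries.

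Adam10, the main alpha-secretase of neurons, had the largest positive difference of the 8 genes at 24M. Its level was 86.0, 111, 104, 109 and 118 CPM in the 3M single-end samples and 123, 134, 133, 116 and 116 CPM at 24M. The 24M samples lay at the upper end, and 2 of them fell below the highest 3M sample. The log2 difference was 0.24 (SE 0.08, 95% confidence interval 0.07 to 0.40), and its adjusted p of 0.0819 did not pass. Without 3M single-end replicate 5, the highest of the young samples, the log2 difference was 0.27 and the adjusted p 0.0291, and without replicate 1, the lowest, they were 0.17 and 0.141. In the paired-end libraries Adam10 was 104, 104 and 105 CPM at 3M and 99.8, 106 and 104 CPM at 29M, so that no shift was seen there (log2 difference -0.02, 95% confidence interval -0.10 to 0.07, adjusted p = 0.883). The 29M effect minus the 24M effect was -0.25 (95% confidence interval -0.49 to -0.02), and this difference between the effects did not pass after adjustment over 16055 genes (adjusted p = 0.438). Its unadjusted p of 0.0331 belongs to the 10.4% of all genes with an unadjusted p under 0.05 in that test.

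Bace1 was slightly lower in both aged groups and passed in neither. It was 148 ± 6.32 CPM at 3M and 142 ± 2.98 CPM at 24M, a log2 difference of -0.06 (SE 0.04, adjusted p = 0.395). The paired-end samples gave 149, 145 and 144 CPM at 3M and 140, 137 and 143 CPM at 29M, and there each aged sample lay below each young one (log2 difference -0.06, SE 0.04, adjusted p = 0.403). Exons of Bace1 share 975 bases with Rnf214 and 135 bases with Gm16536, both on the opposite strand. The methods name the overlap mode as the counting option set away from its default and do not name the strand option, so reads from these bases may be lost or mixed between the genes.

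Psen2, which encodes presenilin 2, stayed between 15.2 and 19.6 CPM in all samples of both library types. Its means were 17.8 ± 1.18 and 17.2 ± 1.04 CPM at 3M and 24M (log2 difference -0.05, adjusted p = 0.661) and 17.9 ± 2.39 and 17.9 ± 0.830 CPM at 3M and 29M (log2 difference -0.01, adjusted p = 0.98). Its 95% confidence interval spanned -0.21 to 0.10 at 24M and -0.22 to 0.20 at 29M on the log2 scale. One of the 24M samples (replicate 3, at 15.3 CPM) stood apart from the other 24M samples, which lay between 17.4 and 17.7 CPM.

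The degrading peptidases differed from each other. Ide, a cytosolic zinc peptidase that also degrades insulin, was 57.0 ± 3.39 CPM at 3M and 60.5 ± 3.16 CPM at 24M (log2 difference 0.08, adjusted p = 0.355), and 47.6 ± 1.26 CPM at 3M and 48.3 ± 1.75 CPM at 29M (0.02, adjusted p = 0.896). The groups overlapped at both ages.

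Mme, the membrane peptidase neprilysin, gave the largest difference of the 8 genes at both ages. Its level was 6.32, 5.71, 6.78, 7.95 and 8.94 CPM at 3M and 5.14, 6.15, 5.52, 4.75 and 4.41 CPM at 24M. Only the highest 24M sample lay above the lowest 3M sample. In the paired-end libraries it was 5.94, 6.02 and 7.64 CPM at 3M and 4.63, 4.38 and 4.94 CPM at 29M, without overlap. The log2 difference was -0.45 at 24M (SE 0.14, 95% confidence interval -0.75 to -0.16) and -0.48 at 29M (SE 0.15, 95% confidence interval -0.81 to -0.14), that is a level 26.9% and 28.1% lower. Neither passed the adjustment over all genes (adjusted p = 0.0647 and 0.124, edgeR). The 29M effect minus the 24M effect was -0.03 (95% confidence interval -0.49 to 0.43).

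Whether Mme passed at 24M depended on the test and on which libraries entered. It passed with DESeq2 (adjusted p = 0.0390) and with all 4 groups in 1 edgeR fit (adjusted p = 0.0262). Without 3M single-end replicate 2, its lowest young sample, the log2 difference was -0.53 and the adjusted p 0.0467, so that Mme was then called. With the 24M libraries of replicates 1 and 4 kept apart, the adjusted p was 0.0345 at a log2 difference of -0.46, and with both left out it was 0.125 at -0.45. Without 3M single-end replicate 4, the sample with the high striatum markers, the log2 difference was -0.41 and the adjusted p 0.122. Over 19 alternatives the log2 difference lay between -0.53 and -0.37 with adjusted p between 0.0262 and 0.133, and 4 of them passed. Over 12 alternatives at 29M it lay between -0.54 and -0.36 with adjusted p between 0.0699 and 0.513, and 0 passed. The part of the marker levels given above in the Mme values was not tested.

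The ratio of Ide to Mme per kilobase brings these values together. It was 10.8 to 14.6 at 3M and 14.7 to 21.9 at 24M, and 9.73 to 12.4 at 3M and 15.1 to 16.6 at 29M. The aged samples thus lay above the young ones of their own library type, at 24M only just (14.66 against 14.61). Over all single genes tested, the groups did not overlap for 6.57% at 24M and 22.4% at 29M. The ratio of Ide to Mme was formed after the values of both genes were seen and is given as a description.

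Mapt, which encodes tau, was 594 ± 25.2 CPM at 3M and 570 ± 12.5 CPM at 24M (log2 difference -0.06, SE 0.04, adjusted p = 0.392). In the paired-end libraries it was 550, 540 and 520 CPM at 3M and 542, 533 and 556 CPM at 29M. The ranges overlapped and the log2 difference was 0.02 (SE 0.04, adjusted p = 0.862). The intervals went from -9.7% to 2.2% at 24M and from -4.5% to 7.3% at 29M.

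**Figure D3:**
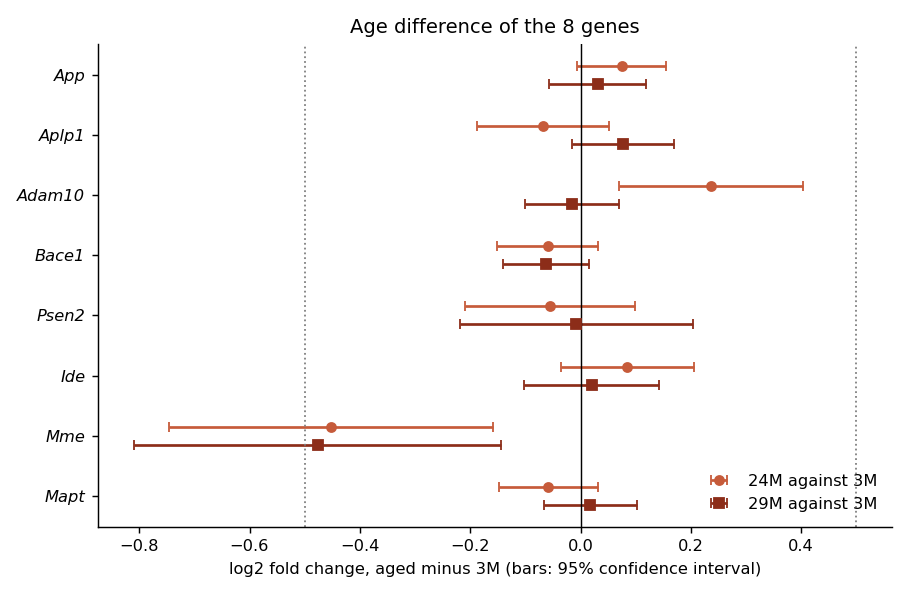
Log2 fold change of each gene, aged minus 3M, with its 95% confidence interval, for 24M (circles) and 29M (squares); dotted lines mark a log2 fold change of 0.5 in either direction. The intervals of Mme (both ages) and Adam10 (24M) leave out 0, and none of these differences passed the adjustment over all genes.

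At 24M, the aged and young samples did not overlap for 0 of the 8 genes, beside 6.57% of genes tested. At 29M this held for 3 of 8 (App, Bace1 and Mme) beside 22.4% of genes tested. Of the differences between the 24M and 29M effects, the smallest adjusted p among the 8 genes was 0.438, and 0 of 16055 genes passed in that test, with 1674 at an unadjusted p under 0.05.

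The wider pathway was described with 74 listed genes, the 8 genes included, of which 72 were tested at each age. At 24M 0 of them were called, beside 1.98% of all genes, and 6 passed at any size (8.33%, beside 5.58% of all genes), 1 higher and 5 lower. This count of 6 moved with single libraries. It was 1 without 24M replicate 2 and 2 without 24M replicate 3. It was 3 when 24M replicate 6 or replicate 1 or 3 of the single-end 3M group was dropped, and 15 when replicate 5 of that group was dropped. The number passing over all genes moved too. It was 875 of 15683 in the main fit, 177 of 15811 without 24M replicate 2 and 2431 of 15802 without 3M single-end replicate 5. The replicate block gave 1 listed gene, and the count was 1 with both 24M replicates 1 and 4 left out. It was 10 with DESeq2, 11 with these replicates kept apart and 17 with all 4 groups in 1 fit. Over all genes these settings gave, in the same order, 471, 276, 1581, 1722 and 2260. At 29M 0 were called, beside 1.45% of all genes, and 0 passed, beside 2.99%. The median log2 fold change of the listed genes was -0.02 at 24M and -0.01 at 29M.

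**Figure D4:**
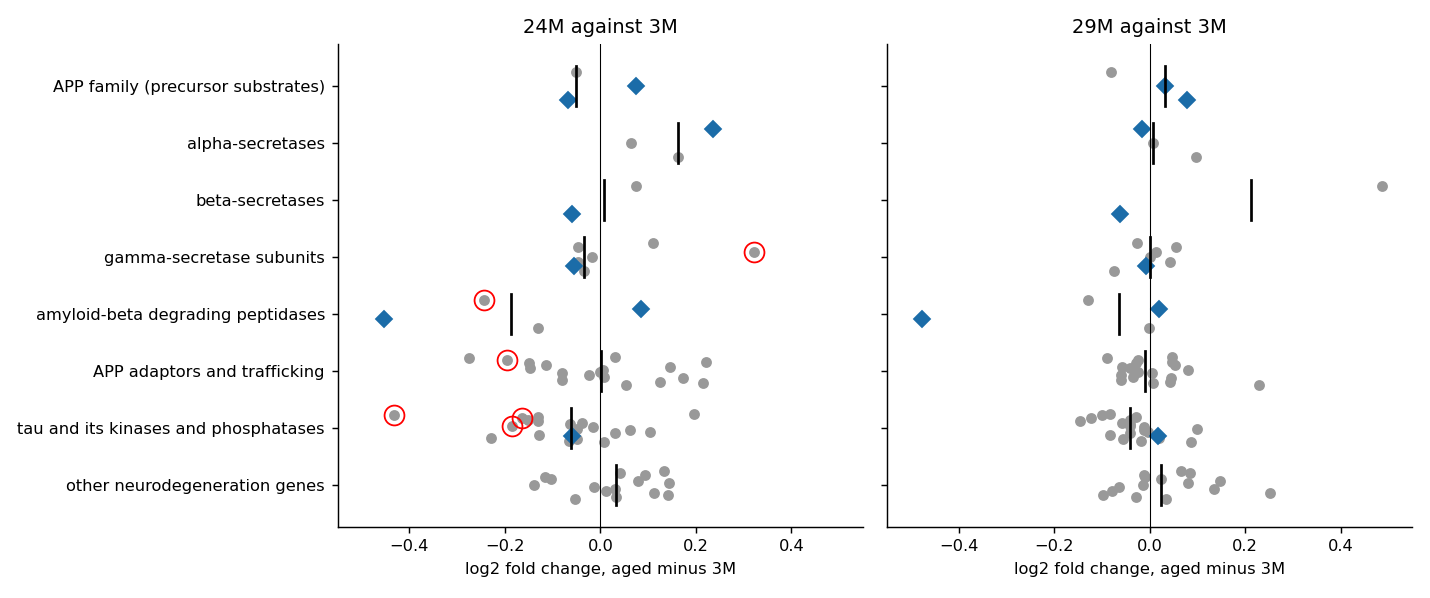
Log2 fold change, aged minus 3M, of the listed genes by role, at 24M (left) and 29M (right); blue diamonds are the 8 genes, grey points the other listed genes, black bars the medians of the lists and red rings the genes with an adjusted p of at most 0.05. The 6 rings are all at 24M, 3 of them in the list of tau and its kinases and phosphatases, and Mme is the leftmost point of the degrading peptidases at both ages.

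By role, the 3 precursors held 0 genes that passed at either age, and the third member, Aplp2, had log2 differences of -0.05 at 24M and -0.08 at 29M. The 3 alpha-secretases all had positive differences at 24M (median 0.16) and none passed, with Adam9 at 0.16 (adjusted p = 0.133) and Adam17 at 0.06 (adjusted p = 0.621). At 29M their median was 0.01. Bace2, the paralog of Bace1, was low and variable, at 5.14 ± 1.94 and 5.48 ± 1.58 CPM at 3M and 24M and 3.17 ± 0.919 and 4.30 ± 1.41 CPM at 3M and 29M. Its log2 difference of 0.49 at 29M was the largest positive one of the list and did not pass (adjusted p = 0.381).

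Of the 7 gamma-secretase subunits, 1 passed at 24M, where 5.58% of all genes did. Aph1b, a scaffold subunit, rose at 24M from 32.6, 38.1, 36.8, 36.9 and 44.0 CPM to 44.8, 52.6, 47.9, 43.0 and 47.2 CPM (log2 difference 0.32, adjusted p = 0.0343). It did not pass in 9 of 19 alternatives, with adjusted p up to 0.0998 (without 24M replicate 2) and of 0.0747 without 3M single-end replicate 1. The groups overlapped in 1 pair of samples. At 29M its log2 difference was 0.01 (adjusted p = 0.94), and the difference between the effects did not pass (-0.31, adjusted p = 0.394). Aph1b and Aph1c are closely similar paralogs, so the split of reads between them is uncertain.

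Among the 4 tested peptidases of 5 listed, Ece1, endothelin-converting enzyme, fell at 24M from 57.7, 51.5, 55.9, 50.8 and 52.9 CPM to 45.0, 45.1, 46.1, 45.9 and 44.8 CPM (log2 difference -0.24, adjusted p = 0.0185). All 24M samples lay below all 3M samples, where the groups did not overlap for 6.57% of all genes tested. At 29M Ece1 was 50.9, 52.2 and 47.0 CPM at 3M and 47.6, 44.1 and 45.7 CPM, with a log2 difference of -0.13 that did not pass (adjusted p = 0.3). Ece2 had log2 differences of -0.13 (adjusted p = 0.417) and 0.00 (adjusted p = 0.998).

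Of the 18 tested genes for APP adaptors and trafficking, 1 passed at 24M (5.56%, beside 5.58% of all genes). Lrp1, an endocytic receptor that binds APP and apolipoprotein E, fell from 675 ± 38.7 CPM to 589 ± 20.8 CPM (log2 difference -0.20, adjusted p = 0.0344), with 3M replicate 4 at 608 CPM inside the 24M range. It did not pass in 8 of 19 alternatives, with adjusted p up to 0.104 (without 24M replicate 2) and of 0.0793 without 3M single-end replicate 1. At 29M its log2 difference was -0.02 (adjusted p = 0.821).

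Of the 20 genes for tau and its kinases and phosphatases, 3 passed at 24M, all lower (15%, beside 5.58% of all genes in either direction). Cdk5r2, which encodes the p39 activator of the tau kinase Cdk5, fell from 312, 285, 267, 352 and 275 CPM to 209, 213, 215, 237 and 229 CPM (log2 difference -0.43, adjusted p = 0.00627). Cdk5r1, which encodes the p35 activator, fell from 315 ± 8.57 to 281 ± 5.27 CPM (-0.16, adjusted p = 0.0308), and Mark1, a kinase that phosphorylates tau at its microtubule-binding repeats, fell from 76.2 ± 3.44 to 67.1 ± 2.76 CPM (-0.19, adjusted p = 0.0454). The 24M samples of these 3 genes lay below all 3M samples. Of the 72 listed genes tested, only these 3 and Ece1 had groups that did not overlap at 24M, beside 6.57% of all genes. They were named for their small p, so this separation is no further support. At 29M the log2 differences were -0.10 for Cdk5r2 (adjusted p = 0.361), -0.12 for Cdk5r1 (adjusted p = 0.0963) and -0.04 for Mark1 (adjusted p = 0.761). Without 3M single-end replicate 4, the highest Cdk5r2 sample and the one with the high striatum markers, the log2 difference of Cdk5r2 at 24M was -0.37 (adjusted p = 0.00631). Cdk5r2 passed in all 19 alternatives at 24M, whereas Ece1 passed in 16, Lrp1 and Cdk5r1 in 11 each, Aph1b in 10 and Mark1 in 9.

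**Figure D5:**
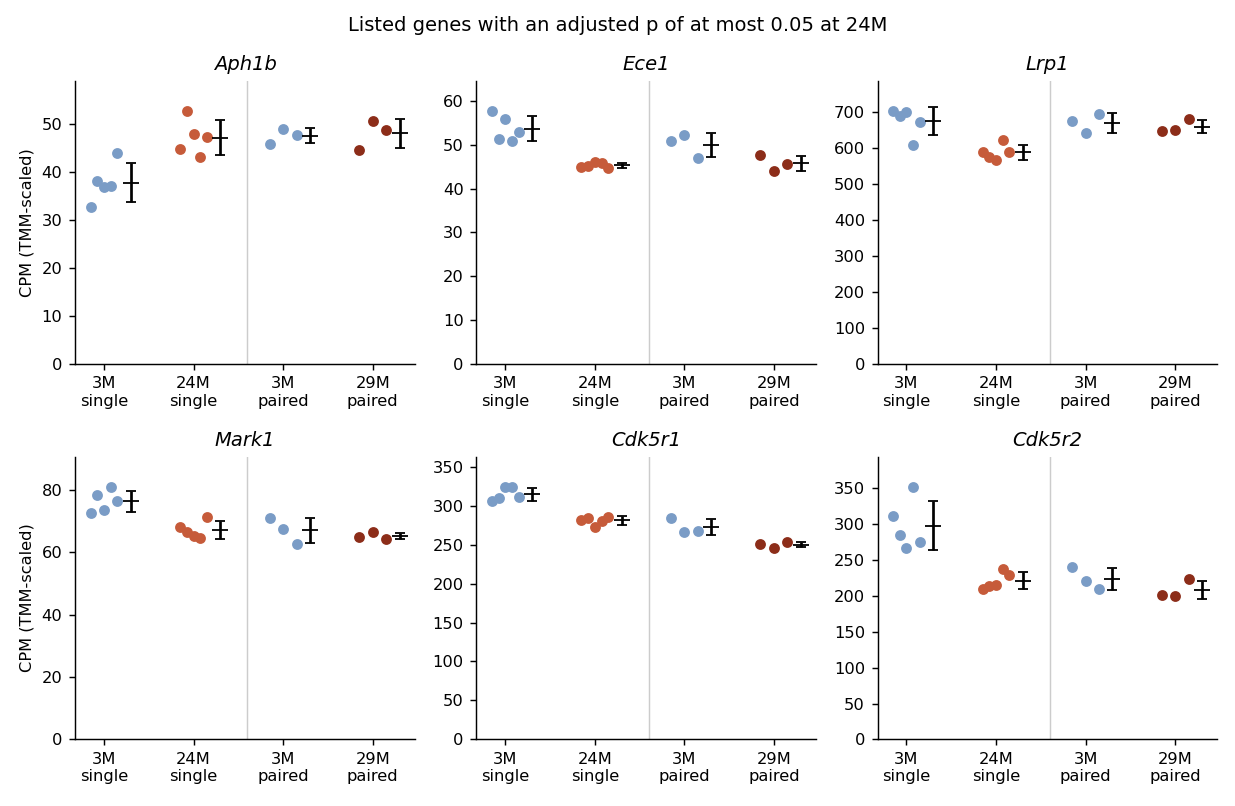
TMM-scaled CPM in every sample (points) of the 6 listed genes that passed at 24M, with the group mean and SD as a bar beside the points. The 24M samples of Ece1, Mark1, Cdk5r1 and Cdk5r2 lie below all 3M single-end samples. In the paired-end libraries only Cdk5r1 has all 29M samples below all 3M samples. Over all genes tested, the groups did not overlap for 6.57% at 24M and 22.4% at 29M.

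The 15 other neurodegeneration genes, among them Sod1 and Vcp, held 0 that passed at either age, with medians of 0.03 and 0.02 on the log2 scale.

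For each of the 8 genes, the genes whose log2 CPM was most alike over 16 samples, with each library type centred on its own mean, were taken from 11846 genes. The nearest was Cxcl12 for App (Pearson r = 0.87), Keap1 for Aplp1 (0.92), Slc35a5 for Adam10 (0.97), Capn5 for Bace1 (0.94), Coprs for Psen2 (0.83), Slc7a2 for Ide (0.86), Epha5 for Mme (0.87) and Pip5k1c for Mapt (0.94). The next were Scg5 and Fmn1 for App, Nfkbib and Sqstm1 for Aplp1, Gpbp1 and Ssr3 for Adam10, Tubb2b and Sdc3 for Bace1, Nagpa and Tie1 for Psen2, Jade3 and Gm21811 for Ide, Bmper and Pantr1 for Mme, and Mib2 and Npdc1 for Mapt. These values describe the samples only, since all genes of a sample share its library, depth and age.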

How the data were processed

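Counts of reads per gene were deposited by the authors, 1 table per library, unnormalised. Per the paper's methods and the submitters' notes, TruSeq polyA libraries were aligned with STAR (version 2.3.0) to GRCm38.p2 and counted with HTSeq in its intersection-nonempty mode; rows for reads on no gene (8.59% to 15.9% of all reads listed), on several genes or not aligned uniquely were left out of library sizes. Here each comparison was fitted on all genes in edgeR 4.0.16 (R 4.3.3) with TMM factors, filterByExpr and the quasi-likelihood test, with Benjamini-Hochberg adjustment over all genes tested. Genes "passed" with an adjusted p of at most 0.05, and were "called" if the log2 fold change was also at least 0.5 in size. CPM are TMM-scaled within each comparison. The fits were tested on simulated data. Of 136 pairs of libraries, 24M replicates 1 and 4 had a mean ratio of count differences to sampling noise of 0.406 (next lowest 1.23).

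The members and lists were chosen with earlier results of these data known. Named were all 8 genes, each listed gene called, up to 10 listed genes per comparison that passed, and the 3 genes most alike each member (mean of at least 5 CPM, prior count 2). Aplp2, Adam9, Adam17, Bace2, Ece2, Aph1a, Psenen, Sod1, Vcp and the marker genes were named after their values were seen. 73 of 74 listed genes matched by symbol. Replicates are labelled as separate samples, with nothing on separate animals, so p-values measure the spread between these samples. Exon lengths (the union of all annotated exons of a gene) and sequences came from GENCODE M21 (GRCm38). DESeq2 1.42.0, other normalization, filters, fits and libraries left out in turn were the alternatives.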

Additional observations from a re-analysis of the deposited data

Results flagged for a closer look

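Psen2 in 24M replicate 3 stood apart from the other 24M samples. On the log scale of CPM, the gap to the nearest sample was 0.8875 of the group's whole range, above Dixon's limit for 5 samples. Its level there was 15.3 CPM, and the other 24M samples lay between 17.4 and 17.7 CPM. Of 28 groups tested over the 8 genes and the 6 listed genes that passed, 1 exceeded the limit, and chance flags about 1 in 20 groups.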

How the results depend on the processing

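Of 248 alternatives for the 8 genes, 234 kept their direction and side of the threshold. In 6 a gene came to pass (Mme in 4, Adam10 in 2), and 8 reversed. Of 186 for the 6 listed genes that passed, 144 kept both and 38 no longer passed. These 38 were all at 24M, with 19 alternatives per gene, since 0 of the 6 passed at 29M in the main fit. In 1 of the 186 a gene came to pass (Cdk5r1 at 29M with no filter, adjusted p = 0.0482, edgeR), and 3 reversed. The number of the 8 genes passing at 24M at any size was 1 with DESeq2, 2 with all 4 groups in 1 fit and 1 with 24M replicates 1 and 4 kept apart, and 0 to 1 with single libraries left out; called were 0 to 1 of the 8, and likewise of the listed genes. Of the listed genes, 10 passed at 24M with DESeq2, 17 with all 4 groups in 1 fit, 11 with 24M replicates 1 and 4 kept apart, 1 with both of these left out (chosen after seeing the data), 1 with the replicate block, and, with single libraries left out, 1 to 15, the extremes being 24M replicate 2 and 3M single-end replicate 5; the number was 3 without 3M replicate 1, 3M replicate 3 or 24M replicate 6 and 2 without 24M replicate 3. At 29M, 2 passed with no filter. Over all genes, those passing at 24M were 875, 1581 with DESeq2, 2260 in 1 fit, 1722 with both libraries kept apart, 471 with the replicate block and 177 to 2431 with single libraries left out; at 29M they were 451, 102 in 1 fit, 1088 with no filter and 198 to 408 with single libraries left out. The reversals were all at 29M and near 0 on the log2 scale. Psen2 was at 0.0023 with the replicate block and between -0.11 and 0.069 with single libraries left out, reversed without 3M paired-end replicate 1 (0.026) or 2 or 29M replicate 2 (0.025). Adam10 lay between -0.036 and 0.0090 (reversed without 29M replicate 1), Ide between -0.0033 and 0.046 (29M replicate 1 or 3M paired-end replicate 1), Mapt between -0.0049 and 0.034 (3M paired-end replicate 3), Aph1b between -0.025 and 0.063 (29M replicate 2 or 3M paired-end replicate 1) and Lrp1 between -0.055 and 0.0019 (3M paired-end replicate 3). The replicate numbers share only a number: same-numbered samples correlated between -0.17 and 0.10 in their deviations, and the paired fit with 24M replicates 1 and 4 kept apart gave Mme -0.41 (adjusted p = 0.133) at 24M and -0.49 (adjusted p = 0.127) at 29M. The cause of these shifts was not tested. Leaving out a library leaves fewer samples, and the number passing at 24M rose in some of these fits and fell in others. Mme rested on 41 to 192 reads per library, with a coefficient of variation between samples of 18.2% at 3M and 13.0% at 24M; intervals cover the spread between samples.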

Other observations

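Some genes of the pathway differed widely between the 3M groups of the 2 library types. Aph1a and Psenen, both gamma-secretase subunits, were at 3.37 and 3.07 CPM in the 3M single-end libraries and at 25.3 and 21.3 CPM in the 3M paired-end libraries, ratios of 7.50 and 6.94. Vcp, an ATPase linked to neurodegeneration, was at 55.8 and 286 CPM, a ratio of 5.13. These 3 were the listed genes that differed by more than 2-fold, 4.17% of 72, beside 3.49% of the 14898 genes tested in both comparisons. The ratios of the 8 genes lay between 0.835 and 1.01. The CPM were scaled separately in the 2 comparisons, and what set these differences was not tested.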
